A study of Macaca mulatta with 5 samples.

Results

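Short long noncoding RNAs (lncRNAs) of rhesus monkey (Macaca mulatta), spanning under 1000 bp of the genome, were described in embryonic stem cells and in cells labelled R_NSCP1. They were chosen by position alone: a listed lncRNA had to lie on chromosomes 1 to 20, span fewer than 1000 bp from its start to its end, and have a position that was listed once. A short region each of chromosomes 7 and 2 was set aside beforehand and held no lncRNA under 1000 bp. The rule found 110 short lncRNAs among 1404 listed lncRNAs, which is 9.35% of the 1177 that lay on chromosomes 1 to 20 and were subject to the same exclusions. The other 1067 of these 1177 are called the longer lncRNAs. No expression value entered the rule.

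The question of the series is the part of noncoding RNAs and DNA methylation in the neural fate of monkey embryonic stem cells. The embryonic stem cells (rESC) and the R_NSCP1 cells each gave 1 library of RNA freed of ribosomal RNA and 1 library of methylated DNA (MeDIP-seq). A mixed input of both cell types was not analysed here. No strain, age, passage or treatment is given for either group, the abbreviation R_NSCP1 is not spelled out, and the cell type field reads embryonic stem cell even for R_NSCP1. Because there was 1 RNA library per cell type, every difference below compares 2 libraries without replicates, and no test between cell types was possible. The values are FPKM, fragments scaled to transcript length and to library size, and the number of reads behind them is unknown. The table identifies lncRNAs by chromosome, strand, start and end and by no gene name, so markers of pluripotent or neural cells were not checked here.

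As background, lncRNAs are transcripts without a recognised protein product that are longer than the classes of small RNA. They include spliced transcripts of many kilobases, antisense transcripts and short, often unspliced transcripts made at promoters and enhancers. Several lncRNAs are known to bind chromatin regulators or transcription factors in stem cells and neural progenitors, and many are made in few cell types and at low level. In MeDIP-seq an antibody enriches sheared DNA that carries methylated cytosine, and methylation of CpG-rich promoters usually goes with silence of the transcript.

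The short lncRNAs spanned 306 to 993 bp, with a median of 755.5 bp. On the strands they were nearly even, with 58 on plus and 52 on minus. They lay on 19 of the 20 chromosomes. Under the same exclusions, chromosome 7 held 11 of its 83 lncRNAs, chromosome 1 held 10 of 101 and chromosome 19 held 9 of 88. The largest share was that of chromosome 18, with 4 of 18 (22.2%), whereas chromosome 11 held 0 of its 56 lncRNAs. The 3 shortest were chr1:113802230-113802535 (306 bp), chr18:74168610-74168957 (348 bp) and chr1:71617316-71617710 (395 bp). At the limit, the longest 3 members spanned 989, 990 and 993 bp, with FPKM values of 2.50, 0 and 1.58 in rESC and 2.84, 1.45 and 6.35 in R_NSCP1. The 3 nearest lncRNAs outside the limit spanned 1001, 1001 and 1006 bp, with 2.14, 4.46 and 1.25 in rESC and 3.37, 3.38 and 1.67 in R_NSCP1.

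More short lncRNAs stood higher in R_NSCP1 than in rESC. Their median FPKM was 2.41 in rESC (quartiles 0.953 and 6.05) and 3.57 in R_NSCP1 (2.41 and 5.19). Each difference is the log2(FPKM + 0.1) in R_NSCP1 less that in rESC, a scale on which weak lncRNAs differ by less than their FPKM ratio. At least 2-fold higher in R_NSCP1 on this scale were 44 of 110 short lncRNAs, or 40.0% (95% Wilson interval 31.3% to 49.3%), against 34.7% of the 1395 listed lncRNAs that reached 0.1 FPKM in either library. At least 2-fold higher in rESC were 33, or 30.0% (22.2% to 39.1%), against 30.8% of all. These shares lie near those of the whole table, and neither is a result about short lncRNAs as such. The remaining 33 lay within 2-fold, and the median log2 difference was 0.52, beside 0.09 over all listed lncRNAs and 0.10 over the longer ones. The intervals cover counting error only, since lncRNAs of 1 library are not independent samples.

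All 110 short lncRNAs reached 0.1 FPKM in either library, and their higher value was never under 1.45. A selection of the listed transcripts by level, on which the sources used here are silent, was not tested. Listed at an FPKM of 0 were 13 short lncRNAs (11.8%) in rESC and 4 (3.64%) in R_NSCP1. Among all listed lncRNAs the shares were 11.1% and 4.99%, close to those of the short ones. With lncRNAs listed at 0 in either library left out, 31 stood at least 2-fold higher in R_NSCP1 and 29 in rESC. Across the 110 short lncRNAs the levels in the libraries went together weakly, with a Spearman rho of 0.27. Over the 1067 longer lncRNAs rho was 0.066. Both describe transcripts quantified in the same 2 libraries, not replicates.

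**Figure D1:**
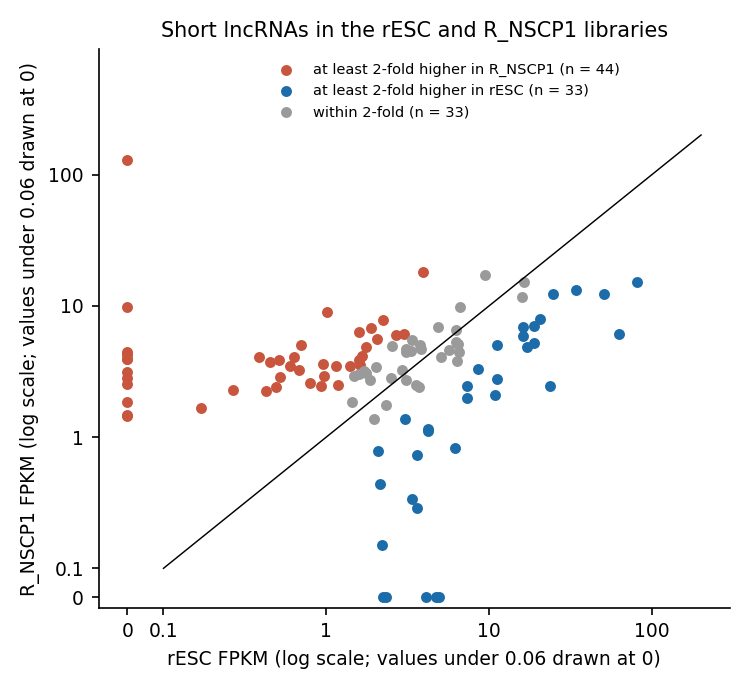
FPKM of each of the 110 short lncRNAs in rESC (x axis, log scale) and R_NSCP1 (y axis, log scale), 1 point per lncRNA, with values under 0.06 drawn at 0 and the line marking equal levels. The 44 red points are at least 2-fold higher in R_NSCP1 and include a column of 13 listed at 0 in rESC, whereas most points beyond an FPKM of 10 in rESC lie below the line.

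The abundant short lncRNAs of rESC stood lower in R_NSCP1. The highest was chr19:43589578-43590338 on the plus strand, which had 80.99 FPKM in rESC but 15.1 in R_NSCP1, a ratio of 5.38. It was followed by chr9:43432199-43432943 on the plus strand, with 62.3 and 6.13, a ratio of 10.2. For chr6:132077913-132078860, also on the plus strand, the values were 50.9 and 12.4. These 3 differ from each other in how far they stood apart between libraries: that of chromosome 9 held rank 22 in R_NSCP1, whereas those of chromosomes 19 and 6 held ranks 5 and 7. Ranks 4 and 5 belonged to chr4:30186745-30187697, with 34.0 in rESC and 13.2 in R_NSCP1, and chr17:5287594-5288109, with 24.7 and 12.3, both on the plus strand as well. The latter lay at the 2-fold threshold itself, with a ratio of 2.01.

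Ranks 6 to 10 in rESC were held by lncRNAs between 17.2 and 23.6. On the minus strand, chr12:71492600-71493316 had the values 23.6 and 2.45, a ratio of 9.62. Smaller ratios belonged to chr7:131207632-131208126 (20.6 and 7.995), chr19:52674647-52675056 (18.9 and 7.01), chr1:83316100-83317030 (18.8 and 5.21) and chr8:105009239-105010039 (17.2 and 4.87). All 10 were thus higher in rESC, by ratios of 2.01 to 10.2. Because they were picked for their level in rESC, their direction is a description and not evidence of a general shift.

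In R_NSCP1 the list of abundant short lncRNAs was headed by a transcript listed at 0 in rESC. At chr5:60164514-60165039 on the minus strand, 526 bp long, the FPKM in R_NSCP1 was 128.9. The next in rank were far lower. They were chr7:6996941-6997886 on the minus strand, with 3.95 in rESC and 18.2 in R_NSCP1, chr1:85373531-85373978 on the plus strand, with 9.38 and 17.3, and chr3:86999099-86999859 on the minus strand, with 16.3 and 15.3. The lncRNA of chromosome 3 was the most abundant short lncRNA at about equal level in both libraries, with a log2 difference of -0.09. Little difference was also seen for chr19:60736800-60737777, with 15.9 and 11.7, and chr8:14803683-14804125 with 6.59 and 9.81. The R_NSCP1 list shared 4 of its 10 members with the rESC list, those of chromosomes 19 (43589578), 6, 4 and 17, and 6 of its 10 stood higher in rESC.

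The abundant short lncRNAs mostly stood higher in rESC and the rest more often higher in R_NSCP1. An FPKM of at least 10 was reached by 17 short lncRNAs in rESC, by 9 in R_NSCP1, and by 6 in both, so that 20 (18.2%, Wilson interval 12.1% to 26.4%) reached it anywhere. Among the longer lncRNAs 146 (13.7%, 11.8% to 15.9%) did so. Of the 20 abundant short lncRNAs, 15 were higher in rESC by 2-fold or more and 2 in R_NSCP1. Of the other 90, 18 were higher in rESC and 42 in R_NSCP1. The 146 abundant longer lncRNAs were split likewise, with 80 higher in rESC and 31 in R_NSCP1. Below an FPKM of 10 the longer set leaned towards R_NSCP1 too: of 920 that reached 0.1 FPKM, 345 rose at least 2-fold and 244 fell as far. Both sides of the split thus had the same direction in the longer set, and a difference in its size was not tested. The split uses the same values whose difference is counted, and what it depends on was not tested.

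A few transcripts carried much of the summed level. The FPKM values of the 110 short lncRNAs summed to 682 in rESC and 605 in R_NSCP1, which is 8.77% and 9.59% of the sum over the 1177 lncRNAs of chromosomes 1 to 20, against 9.35% of their number. In rESC the highest member held 11.9% of the short lncRNAs' sum, the 5 highest 37.1% and the 10 highest 51.6%. In R_NSCP1 the highest held 21.3%, the 5 highest 32.2% and the 10 highest 42.0%. So 10 members made up 50% of the sum in rESC, and 16 were needed in R_NSCP1.

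The weight in R_NSCP1 rested on the lncRNA of chromosome 5 at 60164514. Without it the 5 highest held 16.6% of the R_NSCP1 sum, in place of 32.2%, and the short lncRNAs held 7.70% of the autosomal sum. Leaving out the highest rESC member instead changed the rESC share of the 5 highest to 32.5%. The ratio of the summed FPKM, rESC over R_NSCP1, was 1.13 with all members, 1.43 without the lncRNA of chromosome 5, and 1.02 without the lncRNA of chromosome 19 at 43589578. For the longer lncRNAs this ratio was 1.24. Sum and median therefore pointed in opposite directions: the sum was higher in rESC and the median in R_NSCP1. The same held for the longer lncRNAs, with medians of 2.20 in rESC and 2.38 in R_NSCP1. Members at an FPKM of at least 10 held 65.9% of the sum in rESC and 40.4% in R_NSCP1, and those under 10 summed to 232 in rESC and 360 in R_NSCP1.

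The most abundant 10% of short lncRNAs held a smaller share of the sum than the most abundant 10% of longer ones. The highest 11 of 110 short lncRNAs held 54.0% of their sum in rESC and 43.6% in R_NSCP1, whereas the highest 107 of 1067 longer lncRNAs held 65.9% and 59.7%. None of the 110 short lncRNAs came near the highest of the 1067 longer ones, which reached 634 in rESC and 923 in R_NSCP1. This does not hold for short transcripts on unplaced scaffolds, which the rule left out. A scaffold transcript of 250 bp had 1203 FPKM in rESC and 514.9 in R_NSCP1. These shares are descriptions of 2 libraries, and the difference between the sets was not tested.

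**Figure D2:**
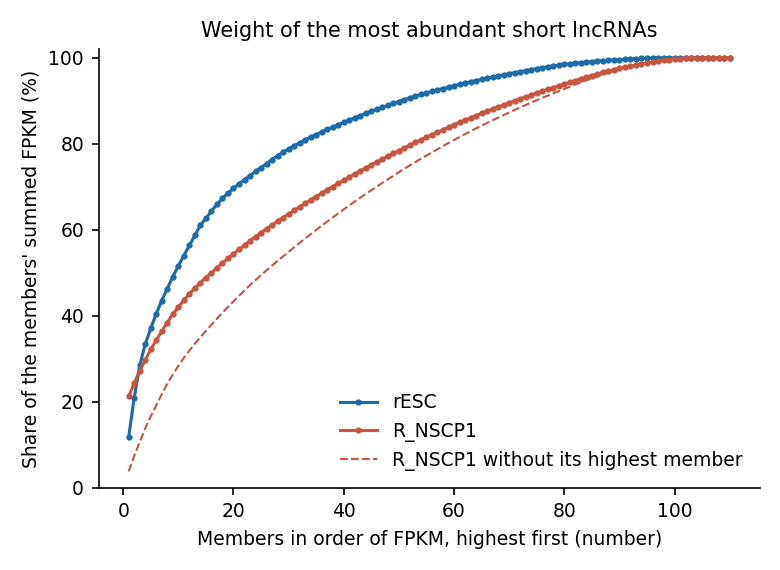
Cumulative share of the short lncRNAs' summed FPKM (y axis, %) over the 110 members in order of FPKM, highest first (x axis), for rESC, for R_NSCP1 and, dashed, for R_NSCP1 without its highest member. The rESC curve passes 50% at 10 members and the R_NSCP1 curve at 16, and the R_NSCP1 curve starts at 21.3% because of 1 lncRNA.

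Within the short lncRNAs, the median of the higher library's FPKM was largest in the shortest span class. The span classes were chosen after the data were seen. That median was 9.80 among 12 members of 300 to under 500 bp and 5.55 among 16 members of 500 to under 600 bp. It lay between 4.05 and 4.19 in the 3 classes of 100 bp each from 600 to under 900 bp, and was 3.50 among 29 members of 900 bp or more. The lowest value of a class was 3.21 below 500 bp, then 2.81, 2.59, 1.47 and 1.86 in the 4 classes from 500 to under 900 bp, and 1.45 at 900 bp or more. Over the 110 members, span and the higher FPKM had a Spearman rho of -0.28. FPKM divides by transcript length, so the same number of fragments gives a larger value for a shorter transcript, and the higher FPKM multiplied by the span in kilobases was at least 1.07 in every member. The part of a detection limit in this pattern was not tested.

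The counts by direction also differed between span classes chosen after the data were seen, and a dependence on span was not tested. Over all listed lncRNAs that reached 0.1 FPKM in either library, 34.7% were at least 2-fold higher in R_NSCP1 and 30.8% in rESC. The classes are small and their counts carry no intervals. Under 600 bp, 14 of 28 members were at least 2-fold higher in R_NSCP1 and 6 in rESC. From 600 to under 800 bp the numbers were 17 and 9 of 35. At 800 bp or more the order was turned, with 13 higher in R_NSCP1 and 18 in rESC among 47. Members of 800 to under 900 bp made this turn, with 2 and 9 of 18, whereas those of 900 bp or more were at 11 and 9 of 29. In the class of 500 to under 600 bp, 5 of 16 members had an rESC value of 0 and none an R_NSCP1 value of 0. Among the longer lncRNAs under 2000 bp, 80 were higher in R_NSCP1 and 66 in rESC out of 222.

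**Figure D3:**
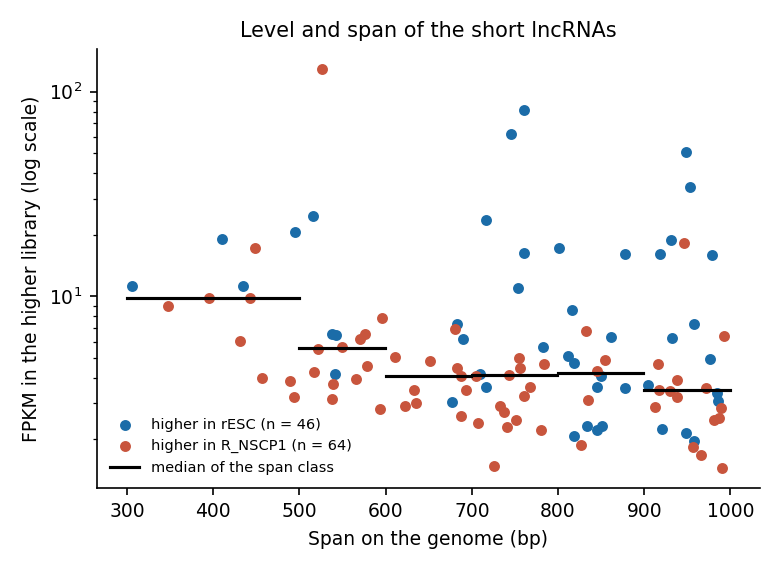
FPKM in the library where it was higher (y axis, log scale) against span in bp (x axis) for the 110 short lncRNAs, coloured by the library with the higher value, with black bars at the median of each span class. The median falls from 9.80 in the shortest class to 3.50 in the longest, while the abundant members between 745 and 953 bp are mostly higher in rESC.

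Furthest towards R_NSCP1 stood short lncRNAs listed at 0 in rESC, for which no fold is given. Beside chr5:60164514-60165039 they were chr1:71617316-71617710 on the minus strand, with an FPKM of 9.79 in R_NSCP1, and chr12:76120433-76121188 on the minus strand, with 4.43. Between 3.94 and 4.30 stood chr3:30360328-30361172, chr2:120387167-120387683, chr2:26033892-26034348 and chr1:81337656-81338221. Those of chr7:95889800-95890337, chr9:21243281-21243874 and chr10:2765076-2766062 stood at 3.13, 2.81 and 2.53. The 7 highest of these 10 lay above the R_NSCP1 median of 3.57 and the other 3 below it. The median R_NSCP1 FPKM of the 13 short lncRNAs listed at 0 in rESC was 3.94.

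With a value above 0 in both libraries, looked up after the values were seen, the largest log2(FPKM + 0.1) difference towards R_NSCP1 was that of chr19:6230480-6231167 on the minus strand, which went from 0.384 to 4.05, a ratio of 10.6. On the plus strand, chr18:74168610-74168957 went from 1.003 to 8.94, a log2 difference of 3.04 and a ratio of 8.91. For chr7:113746379-113746917 on the minus strand the values were 0.450 and 3.72. Ratios of similar size, at a smaller log2 difference on this scale, belonged to chr19:60905082-60906047 (0.169 and 1.67, ratio 9.85) and to chr8:148241030-148241770 (0.268 and 2.30, ratio 8.58). For chr7:113746379 and chr19:6230480 the rESC value was under 0.5, where a pseudocount of 1 in place of 0.1 lowered the log2 difference from 3.10 to 1.87 (chromosome 19) and from 2.80 to 1.70 (chromosome 7).

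Towards rESC the largest differences were those of members listed at or near 0 in R_NSCP1. On the plus strand, chr3:81937836-81938811 had 4.91 FPKM in rESC and was listed at 0 in R_NSCP1. The same held for chr19:52737380-52738229 on the minus strand, with 4.08, and for chr5:183271623-183272473 and chr5:183249867-183250786, both on the plus strand, with 2.33 and 2.24. Near 0 in R_NSCP1 was also chr2:54612661-54613478, with 4.74 and 0.000144, and its log2 difference depends on the pseudocount. In rESC, 3 of these 5 lay above the median of 2.41 and 2 just below it, and none reached 5. The remaining large differences had values above 0.1 in both libraries. They included the abundant lncRNAs of chromosome 9 at 43432199 and chromosome 12, with log2 differences of -3.32 and -3.22. Lower in level were chr1:221974318-221975162, with 3.61 and 0.288, chr17:94267731-94268575, with 2.20 and 0.152, and chr13:100869743-100870726, with 3.35 and 0.338.

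Called up in the authors' deposited table were 17 short lncRNAs (15.5%, against 16.0% of all listed lncRNAs) and called down were 10 (9.09%, against 9.05%). All 17 and all 10 differed by at least 2-fold on the scale used here. Among short lncRNAs, the calls of the authors' deposited table treated values of 0 in the 2 libraries unequally. Of the 17 up calls among them, 13 were of short lncRNAs listed at 0 in rESC with a p-value of 0, down to an R_NSCP1 FPKM of 1.45. Calls of the other listed lncRNAs at 0 are not described here. None of the 4 short lncRNAs listed at 0 in R_NSCP1 was called down in the authors' deposited table, where their p-values were 0.0183 and 0.135. The 4 up calls with a value above 0 in rESC were those of chr7:6996941, chr18:74168610, chr14:77750726 and chr19:6230480. Every down call had an rESC FPKM of at least 11.2. The sources used here name no test for the authors' deposited table.

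Short lncRNAs seldom overlapped another listed lncRNA. The gap was counted in bp between the ends of a short lncRNA and the nearest listed lncRNA at another position, on either strand, and was 0 where they overlapped. The median gap was 324762 bp, with quartiles of 66862 and 955265 bp, and the largest was 8803416 bp. Overlap was found for 7 of 110 short lncRNAs, or 6.36% (Wilson interval 3.12% to 12.6%), and for 299 of 1067 longer lncRNAs, or 28.0% (25.4% to 30.8%). Within 10 kb lay another listed lncRNA for 13 short (11.8%, 7.04% to 19.2%) and 360 longer lncRNAs (33.7%, 31.0% to 36.6%). A longer span has more room to overlap, and longer lncRNAs include transcripts of the same locus with differing ends.

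With overlaps left out the gaps were alike. The nearest lncRNA that did not overlap lay within 10 kb of 7 short lncRNAs (6.36%, 3.12% to 12.6%) and of 101 longer ones (9.47%, 7.85% to 11.4%). Within 100 kb the shares were 25.5% (18.2% to 34.3%) and 27.0% (24.4% to 29.7%), and the median gaps 359854 and 403655 bp. A difference in closeness between the sets was seen for overlaps and lay within the intervals once they were left out. Most short lncRNAs had no other listed lncRNA close by, with 97 of 110 farther than 10 kb from any other and 27 of 110 farther than 1 Mb. Most longer lncRNAs also had no neighbour within 10 kb once overlaps were left out. Genes and transcripts outside the list were not examined.

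**Figure D4:**
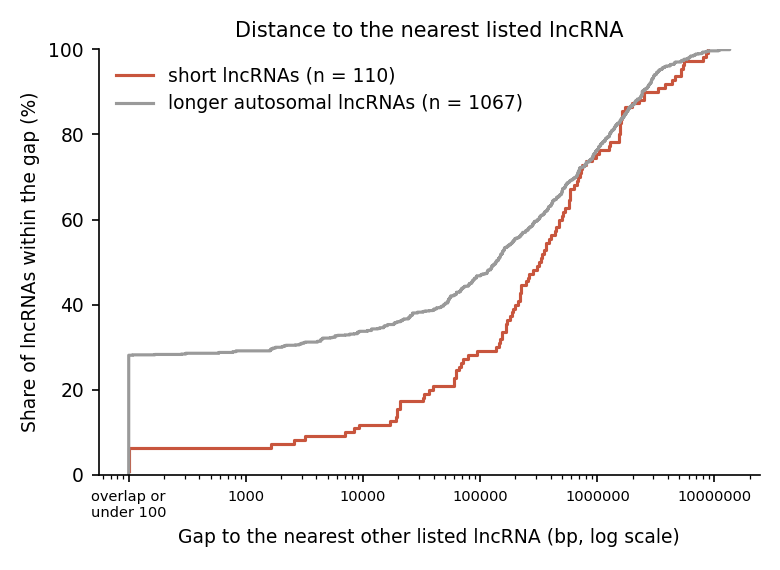
Share of lncRNAs (y axis, %) whose nearest other listed lncRNA lies within the gap given on the x axis (bp, log scale, overlaps drawn at the left end), for the 110 short and the 1067 longer lncRNAs. The curves start at 6.36% and 28.0% and meet near 1 Mb, where they stand at 75.5% and 76.4%.

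Of the 7 short lncRNAs that overlapped another listed lncRNA, 6 did so on the same strand. At chr20:70391569-70392525 the short lncRNA lay inside 2 longer ones with a shared end. It was listed at 0 in rESC and stood at 1.84 in R_NSCP1, as did the longer one of 109015 bp with 0 and 3.91, whereas the one of 53801 bp stood at 1.82 and 2.52. At chr2:26033892-26034348 (0 and 3.96) the surrounding lncRNA of 90545 bp stood at 1.46 and 4.76. At chr3:81937836-81938811 (4.91 and 0) the overlapping lncRNA of 4809 bp stood at 2.61 and 0.140. These 3 pairs stood apart between libraries in the same direction by at least 2-fold, except that the lncRNA of 53801 bp on chromosome 20 lay within 2-fold.

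The other same-strand overlaps differed less in the short member. On chromosome 6, 48631840-48632771 stood at 6.28 and 5.33 inside a lncRNA of 83864 bp at 4.06 and 1.45, and 169053241-169054144 at 3.68 and 2.39 inside one of 61769 bp at 4.31 and 3.25. On chromosome 13, 3154143-3155020 stood at 3.58 and 2.47, and a lncRNA of 1353 bp that shares its start coordinate at 4.62 and 0.658. So the short transcript stayed within 2-fold while its longer partner was at least 2-fold lower in R_NSCP1 in 2 of these 3 places. The table does not give exons, so reads of a short lncRNA and of a longer one on the same strand cannot be told apart here.

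The overlap on opposite strands went in opposite directions. On the minus strand, chr8:61687771-61688550 had 0.427 FPKM in rESC but 2.22 in R_NSCP1, and the plus-strand lncRNA of 115915 bp around it at 6.41 and 2.53. The libraries were made with a kit that keeps the strand, per the labels' protocols, and the use of strand in quantification is not stated in the sources used here. Values under 3 in the short member make this a weak case.

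Close neighbours without overlap stood on the same side. At chr3:30360328-30361172 (0 and 4.30) a minus-strand lncRNA of 235208 bp lay 2564 bp away and stood at 0 and 4.31, nearly the same values. At chr1:221974318-221975162 (3.61 and 0.288) a lncRNA of the other strand, 3219 bp away, stood at 6.18 and 1.79. At chr7:3029012-3029779 (0.949 and 3.59) one of the same strand, 8384 bp away, stood at 0.526 and 3.11. The other 3 short lncRNAs with a nearest neighbour within 10 kb and no overlap differed by under 2-fold themselves. The closest of these was chr19:21188687-21189520 (2.32 and 1.76), 1642 bp from a lncRNA at 2.05 and 1.18. Next came chr7:163874457-163875291 (1.75 and 3.09), 7030 bp from one at 1.16 and 2.53, and chr19:50079151-50079692 (6.44 and 5.16), 9242 bp from one at 1.49 and 1.19.

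Counted over distance, agreement in direction of short lncRNAs with their nearest was most frequent near by and did not fall steadily beyond 100 kb. Within 10 kb, 12 of 13 short lncRNAs and their nearest listed lncRNA had differences of the same sign, and within 100 kb 27 of 32 (84.4%). Within 1 Mb the number was 49 of 83 (59.0%), and beyond 1 Mb 17 of 27 (63.0%). The 83 include the 32 within 100 kb, so the share from 100 kb to 1 Mb alone was below 59.0%. With overlaps counted in the same way, the longer lncRNAs had 65.8% of 357 within 10 kb and 66.7% of 496 within 100 kb. Beyond 1 Mb they had 53.8% of 251. For the longer lncRNAs with overlaps left out, where transcripts of the same locus do not count, the shares were 80.2% of 101 within 10 kb, 70.1% of 288 within 100 kb and 52.8% of 343 beyond 1 Mb. Among short lncRNAs with overlaps left out they were 7 of 7 within 10 kb, counting the next neighbour of a member that also overlaps, and 23 of 28 (82.1%) within 100 kb. Within 100 kb, 16 of 18 same-strand and 11 of 14 opposite-strand neighbours agreed in sign. Neighbours share the same 2 libraries and pairs of short lncRNAs count from both sides, so these shares are descriptions, and no difference between short and longer lncRNAs was tested.

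**Figure D5:**
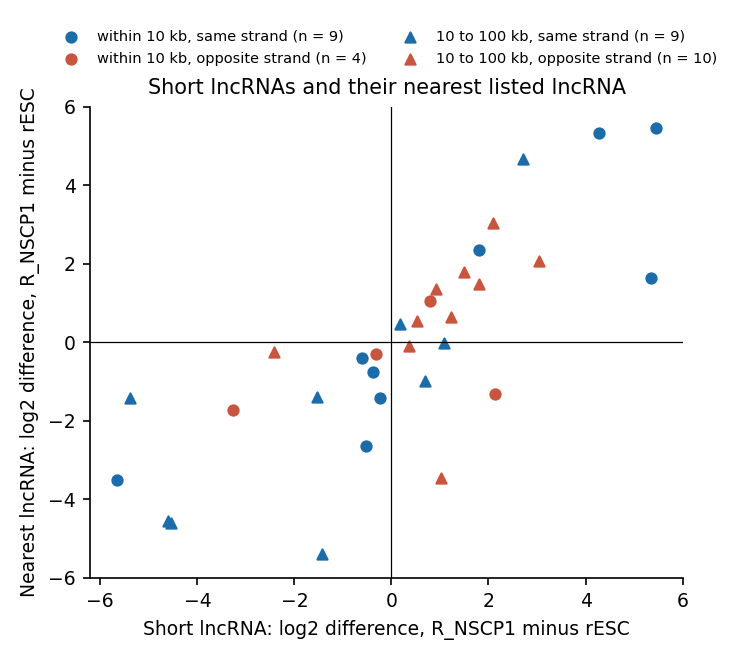
Log2 difference, R_NSCP1 minus rESC with a pseudocount of 0.1, of the 32 short lncRNAs with a listed lncRNA within 100 kb (x axis) and of that nearest lncRNA (y axis), circles within 10 kb and triangles beyond, blue for the same and red for the opposite strand. Of the 32 points 27 lie in the lower left or upper right, and values beyond 4 in size belong to lncRNAs listed at 0 in a library.

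Some short lncRNAs had another short lncRNA as their nearest neighbour. This was so for 19 of 110, and 8 pairs were nearest to each other, none within 10 kb. The 4 such pairs within 100 kb each had differences of the same sign. On chromosome 5 the plus-strand lncRNAs at 183249867 and 183271623, 20836 bp apart, had nearly equal values, 2.24 and 2.33 in rESC, and both were listed at 0 in R_NSCP1. On chromosome 18, 74148485-74149191 (minus strand, 0.488 and 2.40) and 74168610-74168957 (plus strand, 1.003 and 8.94), 19418 bp apart, both stood higher in R_NSCP1. So did the chromosome 17 pair, 60165 bp apart, 86991868-86992699 (minus strand, 1.87 and 6.75) and 87052865-87053486 (plus strand, 0.965 and 2.91). On chromosome 19 the minus-strand lncRNAs at 52674647 (18.9 and 7.01) and 52737380 (4.08 and 0), 62323 bp apart, both stood lower in R_NSCP1. Over all 8 pairs, 5 had the same sign.

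The most isolated short lncRNA was chr14:96194790-96195466, 8803416 bp from the next, with 3.04 in rESC and 1.36 in R_NSCP1. It was followed by chr5:26020410-26021264 (8447545 bp, 2.55 and 4.90), chr6:28564195-28564625 (7926442 bp, 2.68 and 6.02), chr5:60164514-60165039 and chr7:152286860-152287494 (5395031 bp, 1.59 and 3.01). The abundant lncRNA of chromosome 5 at 60164514 thus had no listed lncRNA within 5459522 bp. Its nearest, of 6.39 and 3.31, did not share its direction. The other 4 of these isolated short lncRNAs had values under 7 in both libraries. Of the 10 highest rESC members, the nearest listed lncRNA lay 62323 to 1977878 bp away.

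Within 1 kb, MeDIP peaks were found at few short lncRNAs, and mostly in both cell types. The peaks were called by the authors within each library without the input as control, from 8690541 tags in rESC and 9071243 in R_NSCP1, so copy number and mappability were not removed. A peak lay within 1 kb of the span of 16 short lncRNAs in rESC (14.5%, Wilson interval 9.16% to 22.3%) and of 18 in R_NSCP1 (16.4%, 10.6% to 24.4%). These were 14 short lncRNAs with a peak in both, 4 in R_NSCP1 only and 2 in rESC only, which left 90 with neither. Among longer lncRNAs the shares were 21.9% and 32.1%, over spans that give a peak more room.

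At the start, as given by position and strand, the order was turned, in a comparison added after the data were seen. A peak lay within 1 kb of the start of 12 short lncRNAs in rESC (10.9%, 6.35% to 18.1%), against 4.22% (3.17% to 5.60%) of longer ones. In R_NSCP1 the numbers were 14 short lncRNAs (12.7%, 7.73% to 20.2%) against 8.06% (6.57% to 9.85%). The intervals did not overlap in rESC and did in R_NSCP1. They cover counting error only, and the difference was not tested.

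Short lncRNAs with a peak and without one stood apart in both directions. Of the 14 short lncRNAs with a peak in both libraries, 6 were at least 2-fold higher in R_NSCP1 and 4 in rESC, with a median log2 difference of 0.65. Of the 90 without a peak 36 and 27 were, with a median of 0.51. Over all listed lncRNAs the shares were 34.7% and 30.8%, near those of both classes, so neither count is a result about peaks. Among longer lncRNAs the numbers were 65 and 59 of 190 with a peak in both, and 244 and 207 of 680 with neither. The short lncRNAs with a peak in 1 library numbered 4 and 2, too few to describe by a median. Those with a peak in R_NSCP1 only stood at 0.169 and 1.67 (chr19:60905082-60906047), 2.23 and 7.78 (chr2:161731458-161732053), 3.08 and 4.66 (chr3:233541-234456) and 20.6 and 7.995 (chr7:131207632-131208126). They thus went both ways.

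A peak overlapped the span itself for 9 short lncRNAs in rESC and 11 in R_NSCP1. The lncRNA most abundant in rESC, chr19:43589578-43590338, carried the most enriched peak among them, by fold over the local background: 10.1 in rESC from 43589686 to 43590162, and 13.3 in R_NSCP1 from 43589777 to 43590283. It was thus the most abundant short lncRNA of rESC with a peak called inside it in both cell types. At chr7:6996941-6997886, the second in R_NSCP1, a peak was called in both libraries, with a fold enrichment of 6.19 in rESC and 8.51 in R_NSCP1. The lncRNA of chromosome 9 at 43432199, with 62.3 in rESC, had a peak 339 bp outside its span in rESC and 383 bp outside in R_NSCP1.

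Peaks also overlapped the spans of members with FPKM values under 10 in both libraries. On chromosome 10 they lay over 3 of the 6 short lncRNAs in both libraries, at 2765076-2766062 (0 and 2.53), 54382387-54383316 (2.02 and 3.44) and 67277206-67277856 (1.74 and 4.83). At chr17:94267731-94268575 (2.20 and 0.152) and chr20:4504028-4504811 (3.81 and 4.68) peaks were likewise called in both. At chr8:14803683-14804125 (6.59 and 9.81) and chr9:649841-650812 (1.62 and 3.55) the pileup, which counts overlapping fragments, was 81 and 65 in rESC, yet the fold enrichment was only 4.03 and 4.18. At the other spans with an overlapping rESC peak the pileup was 11 to 23. Such peaks stand on a high local background of the same library, and its source was not tested. Peaks over chr3:233541-234456 and chr8:61687771-61688550 were called in R_NSCP1 only, and the nearest rESC peak of the latter lay 484 bp outside its span.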

How the data were processed

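RNA of rESC and R_NSCP1 was sequenced as 1 library each after removal of ribosomal RNA, with a kit that keeps the strand, per the labels' protocols. The authors deposited FPKM values. Depth is unknown. The p-value column of the deposited table has no stated test. TopHat2 2.0.11 and BWA 0.7.7 are named in the submitters' processing notes. MeDIP peaks were called by MACS 2.1.0.20150731 from 8690541 tags in rESC and 9071243 in R_NSCP1, with no control, per the file headers. The deposited pileup signal, fold enrichment and −log10 q values were used within each list only. As for the genome build, it was not given in the sources used here, and no sequence or gene annotation was used. Since 52 of the 63 sequence names of the lncRNA table occur in the peak lists, a shared build was assumed. Coordinates are 1-based.

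Differences were R_NSCP1 minus rESC on log2(FPKM + 0.1), among lncRNAs at 0.1 or more in one library or both. Samples were grouped by title, and no test between single libraries was made. Shares carry 95% Wilson intervals. Pseudocounts, filters, scalings, span limits, distance limits and peak thresholds were varied. The members, lists and span classes were chosen with earlier results of these data known. Named lncRNAs are the 10 highest of each library, the 10 that differed most in each direction with 1 FPKM or more in either library, the 3 shortest, 3 on either side of the span limit, the 5 nearest to another lncRNA without overlap, the 5 farthest from one, the neighbours of all these and those with an overlapping peak; others were named after their values were seen. Steps were tested on simulated data. Computation was in Python 3.11.15 with pandas 2.3.3, numpy 2.4.6 and scipy 1.17.1, and plots were drawn by matplotlib 3.10.9.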

Additional observations from a re-analysis of the deposited data

How the results depend on the processing

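No paired analysis was possible because each cell type had 1 RNA library. Under other settings 57 values were computed. Of these, 29 stayed within 1.5 times the reported count or share, or within 0.1 of the reported median difference. The other 28 moved further, and no median changed sign. Some of the 29 could not move. No filter, or a filter of 1 FPKM, kept the same 110 short lncRNAs, and none of them had a repeated position. Counts and medians under these filters, and shares of the 5 highest with repeated positions kept, were therefore fixed. With lncRNAs listed at 0 left out the median difference was 0.35. Scaling to each library's summed FPKM adds at most 0.32 to a log2(FPKM + 0.1) difference. It adds less where the R_NSCP1 FPKM is low and nothing where that is 0. The scaling gave a median of 0.84, with 52 short lncRNAs higher in R_NSCP1 and 29 in rESC. At a 4-fold threshold 27 were higher in R_NSCP1 and 16 in rESC. Spans below 500 bp gave 5 and 4 of 12 with a median of 0.87, and spans below 2000 bp gave 124 and 99 of 332 with a median of 0.18. Below 500 bp the 5 highest held 85.1% of the rESC and 62.8% of the R_NSCP1 sum, and the set held 1.08% and 1.36% of the autosomal sums. With every sequence of the table, which adds unplaced scaffolds and chromosome X, the 5 highest held 73.6% and 63.6%, and short lncRNAs 21.2% and 17.6% of the whole. Without the highest member the 5 highest held 16.6% in R_NSCP1. Neighbours were within 1 kb for 7, within 100 kb for 32, and within 10 kb without overlaps for 7. Overlapping peaks were found for 9 short lncRNAs in rESC and 11 in R_NSCP1, peaks within 5 kb for 33 and 54, and peaks within 1 kb at a −log10 q of at least 10 for 6 and 8. Set size or distance limit changes these counts by construction. The balance between libraries moved as well for short lncRNAs with a peak. It went from 16 in rESC and 18 in R_NSCP1 within 1 kb to 33 and 54 within 5 kb. The cause of that and of the other movements was not tested. Unknown depth limits every low FPKM, and values of 0 cannot be read as absence.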

Other observations

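Short lncRNAs off chromosomes 1 to 20 were no members and entered only the values given over all listed lncRNAs or over every sequence of the table. There were 17 on unplaced scaffolds, 5 of them at a repeated position, and 2 on chromosome X. The scaffold transcripts included very abundant ones: a transcript of 250 bp had 1203 FPKM in rESC but 514.9 in R_NSCP1, one of 592 bp at 187.9 and 167.0, and one of 496 bp at 59.1 and 8.68. Their FPKM summed to 1521 in rESC and 723 in R_NSCP1, above the sums of the 110 short lncRNAs of the assembled autosomes, and to 318 and 209 without the highest. Both chromosome X members lay on the minus strand and stood higher in R_NSCP1: 15508305-15509247 with 0.864 in rESC and 1.83 in R_NSCP1, and 138423808-138424443 with 3.20 and 8.36.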
